A study of Saccharomyces cerevisiae with 8 samples.

Results

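The genes described here are the budding yeast ribosomal protein genes (RPGs) whose coding sequence is interrupted by at least 1 intron. They were taken from the R64 annotation (the build also called sacCer3) as nuclear open reading frames (ORFs) with a cytosolic RPG symbol and coding segments at least 10 bp apart. This gave 89 of 137 RPGs, among 6002 nuclear protein-coding ORFs. Of the 89, 52 encode proteins of the large subunit, 36 of the small subunit and 1, RPP1B, a protein of the acidic P-stalk. Another 48 RPGs have no coding intron, and 182 intron-containing ORFs encode no ribosomal protein.

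RPGs are among the most heavily transcribed genes of growing yeast, and their promoters are typically bound by Rap1, Fhl1 and Ifh1. Introns are rare in this genome but common in RPGs, so transcripts of these genes make up a large share of the pre-mRNA handled by the spliceosome. The intron usually lies near the 5′ end, behind a very short first coding exon, and most yeast ribosomal proteins are encoded by an A and a B copy retained from an ancient genome duplication. RNA polymerase II (RNAPII) transcribes exon 1, intron and exon 2 as 1 unit, so its occupancy of the intron is measured on DNA and says nothing about splicing.

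RNAPII was recovered by chromatin immunoprecipitation (ChIP) with the 8WG16 antibody from W303a cells growing in synthetic complete medium at 30 °C. Tfg1, which with its partners forms the initiation factor TFIIF, carried an HA tag in every library. It was otherwise normal in the Tfg1-HA strain (control lists below) and had lysines 60 and 61, where most of the SUMO on Tfg1 is attached, replaced by arginine in the Tfg1-K60,61R-HA strain (mutant lists below). A further missense change, not intended by the authors, is present in the mutant Tfg1, and its part and that of the lysines cannot be told apart. Each strain gave 2 IP and 2 input libraries, 8 in all, and 1 peak list per IP library was analysed. The study describes the replicates of a strain as independent. P-values between strains came from all ways of relabelling the 4 lists, 2 per strain. Those within lists came from flipping the signs of the differences over all 4 lists.

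In the order control 1, control 2, mutant 1 and mutant 2 (the replicate numbers of the labels), used throughout, the lists held 1257, 1171, 1098 and 894 peaks and touched 2109, 1868, 1829 and 1384 ORFs. They hold no read counts and the study gives only a nominal depth, so the depth behind each list is unknown. Peak names inside the lists are in upper case in control 1 and mutant 1 and in lower case in control 2 and mutant 2. If case marked genotype, control 2 and mutant 1 would trade places. The labels were kept, every direction below is one between lists as labelled, and values with those 2 labels exchanged are given for the main comparisons of genotypes.

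The 89 genes shared a compact design. Exon 1 had a median length of 15 bp and ranged from 1 bp in RPL20A and RPL20B to 309 bp in RPL17A and RPL17B. In 33 genes it was under 10 bp, and in 6 it was under 3 bp, so that the intron interrupts the start codon itself. Introns had a median of 408 bp in total, from 147 bp in RPL2A to 927 bp in RPL7A, and the coding sequence after the first exon had a median of 394 bp. The first exons of the pairs RPL26 and RPS10 are shown because later results turn on them, and that of RPL20A for its length, each in capitals and followed by the first 60 bases of the intron, read from the R64 reference (S288C, not the W303a strain used).
RPL26A: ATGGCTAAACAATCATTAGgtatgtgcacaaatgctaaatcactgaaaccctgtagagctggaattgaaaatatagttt
RPL26B: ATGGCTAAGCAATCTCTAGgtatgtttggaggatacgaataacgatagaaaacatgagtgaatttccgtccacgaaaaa
RPS10A: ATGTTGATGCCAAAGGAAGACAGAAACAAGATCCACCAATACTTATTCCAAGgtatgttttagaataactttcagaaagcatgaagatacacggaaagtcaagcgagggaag
RPS10B: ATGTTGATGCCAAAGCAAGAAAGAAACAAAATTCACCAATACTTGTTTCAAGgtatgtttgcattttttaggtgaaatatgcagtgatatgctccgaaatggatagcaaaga
RPL20A: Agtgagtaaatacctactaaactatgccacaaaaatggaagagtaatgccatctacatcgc
These stretches lie at chrXII:819312-819390, chrVII:555812-555890, chrXV:867098-867209, chrXIII:732414-732525 and, on the minus strand, chrXIII:754160-754220, and all but the RPL20A intron open with GTATGT. That hexamer, the usual yeast 5′ splice site, began 68 of the 91 introns in the 89 genes (74.7%) and 137 of 190 introns of other genes (72.1%). The next most frequent start was GTACGT, in 14 introns. All 91 introns ended in AG, 50 of them in TAG and 41 in CAG.

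The branch-point sequence TACTAAC, at which the first step of splicing takes place, was present on the sense strand in 85 of the 91 introns (93.4%) and in 147 of 190 introns of other genes (77.4%). The branching A stood a median of 38 bases from the end of the intron, with a range from 16 to 82. The ends of 3 introns are shown with TACTAAC in capitals and the first 12 bases of exon 2 at the right, since the peaks over RPL26B described below began inside its intron.
RPL26A: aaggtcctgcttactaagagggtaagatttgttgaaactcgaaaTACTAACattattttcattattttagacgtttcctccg
RPL26B: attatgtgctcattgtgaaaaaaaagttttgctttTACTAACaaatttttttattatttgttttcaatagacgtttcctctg
RPS10B: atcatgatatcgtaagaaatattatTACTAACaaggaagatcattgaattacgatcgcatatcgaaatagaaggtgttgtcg
The windows are chrXII:819708-819789, chrVII:556238-556319 and chrXIII:732806-732887, all on the plus strand.

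Upstream of the genes, the 9-base core ACCCNNACA of the sequence bound by Rap1 was searched on both strands in the 500 bp before the start codon. It was found at 44 of the 89 genes (49.4%), at 10 of 48 RPGs without a coding intron (20.8%) and at 329 of all 6002 ORFs (5.48%). The match nearest to the start codon lay a median of 322.5 bp before it, with a range from 162 to 483 bp. A match is a description of letters, not a measured binding site. A stretch of 200 bases that ends 100 bases before the start codon is shown, with the match in capitals, for RPL26B and RPS10B, whose start codons lay outside both mutant peaks (below), and for RPL28, whose peak was among the highest.
RPL26B: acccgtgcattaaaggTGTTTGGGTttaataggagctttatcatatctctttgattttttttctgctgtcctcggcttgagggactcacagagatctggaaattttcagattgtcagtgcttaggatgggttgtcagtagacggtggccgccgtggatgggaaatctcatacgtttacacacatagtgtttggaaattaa
RPS10B: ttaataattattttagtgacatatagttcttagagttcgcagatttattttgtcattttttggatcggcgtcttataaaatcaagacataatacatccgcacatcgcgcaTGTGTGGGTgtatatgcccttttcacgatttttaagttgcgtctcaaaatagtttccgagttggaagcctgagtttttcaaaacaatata
RPL28: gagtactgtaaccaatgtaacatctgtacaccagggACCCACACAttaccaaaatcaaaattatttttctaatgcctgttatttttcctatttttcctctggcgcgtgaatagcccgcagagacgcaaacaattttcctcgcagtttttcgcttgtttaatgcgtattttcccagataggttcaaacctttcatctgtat
They lie at chrVII:555512-555711, chrXIII:732114-732313 and chrVII:310667-310866 on the plus strand. Of the 44 genes with a match, the peak started downstream of it, leaving it uncovered, in 23, 25, 24 and 26 genes in the 4 lists.

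RNAPII peaks covered these genes almost completely. All 89 were occupied, with at least 50% of the span from first to last coding base under peaks, in each of the 4 lists. Of all 6002 ORFs, 10.8% were occupied in all 4 lists, against 47 of the 48 RPGs without a coding intron and 23 of the 182 other intron-containing genes. Each of the 89 genes was touched by exactly 1 peak in every list. These were 82 separate peaks per list, because 14 genes stood in 7 neighbouring couples under 1 peak. Among them were RPL13A with RPS16B and RPL13B with RPS16A, RPL21A with RPS9B and RPL21B with RPS9A, where the paralogs of neighbours are neighbours too, and RPL39 with RPS14B. Genes of a couple take their fold from 1 peak and are not separate measurements.

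Peaks had a median width of 1827, 2009, 1703 and 1559 bp over these genes. In 43, 42, 48 and 52 genes no other ORF was covered by at least 50% by the same peak, and 40 genes stood alone in this sense in all 4 lists. The fold of a gene with company is an average over a region that holds other genes.

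The first comparison asked whether coverage of exon 1, intron and exon 2 differed between the lists. Exon 2 and any later exon lay wholly under peaks, at 100%, in all 89 genes and all 4 lists. Exon 1 was fully covered in all 89 genes in both control lists, and in 81 and 80 genes in the mutant lists, where it was at 0 in 2 and 6 genes and partly covered in 6 and 3. Mean coverage of exon 1 was 100% and 100% in the control lists and 96.3% and 91.9% in the mutant lists, a difference of -5.91 percentage points between group means of 100 ± 0 and 94.1 ± 3.17 (SD, n = 2). The two-sided exact permutation test gave p = 0.333, the smallest that 2 lists against 2 allow. Without mutant list 2 the difference was -3.67 points, and with the 2 doubtful labels exchanged it was -2.24 points.

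Introns showed the same order on a smaller scale, mostly through 1 gene, RPL26B. Their mean coverage was 100% in both control lists and 99.5% and 99.1% in the mutant lists, a difference of -0.69 points (exact permutation test, p = 0.333, -0.22 points with the labels exchanged). No intron was left without a peak in any list. Introns were covered in full in 87 and 83 of the 89 genes in the mutant lists. The difference between group means was -51.2 points in RPL26B, and the next largest was -6.52 points, in RPS21A. The excess of exon 2 over exon 1 coverage was 0 and 0 points in the control lists and 3.67 and 8.15 points in the mutant lists. As exon 2 was at 100% throughout, this excess restates the exon 1 coverage and cannot be negative. An exact sign-flip test over the 4 lists gave p = 0.5. With 0 in both control lists it could give no smaller value, so it adds no separate result. The mean excess of 2.95 points became 1.22 points without mutant list 2.

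The start codon fell outside the peak in at least 1 mutant list in 15 of the 89 genes, or 16.9%. Over all ORFs with the start codon under a peak in both control lists the share was 22.1%, so the 15 genes are not more than the background. With the labels exchanged, 7 of the 81 genes with the start codon covered in control list 1 and mutant list 1 lost it in another list. The 15 genes as labelled were RPL6B, RPL14B, RPL23A, RPL26A, RPL26B, RPL34A, RPL40B, RPL42A, RPS6B, RPS10B, RPS11B, RPS17B, RPS18A, RPS21A and RPS21B. In 6 of them only mutant list 1 was affected, in 7 only mutant list 2, and in RPL26B and RPS10B both. None of the 15 belonged to a couple under 1 peak. In the control lists their peaks began a median of 79.5 bp before the start codon, compared with 146 bp in the other 74 genes. A short edge crosses the start codon under a smaller shift, so the choice of the 15 itself favours short control edges.

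**Figure D1:**
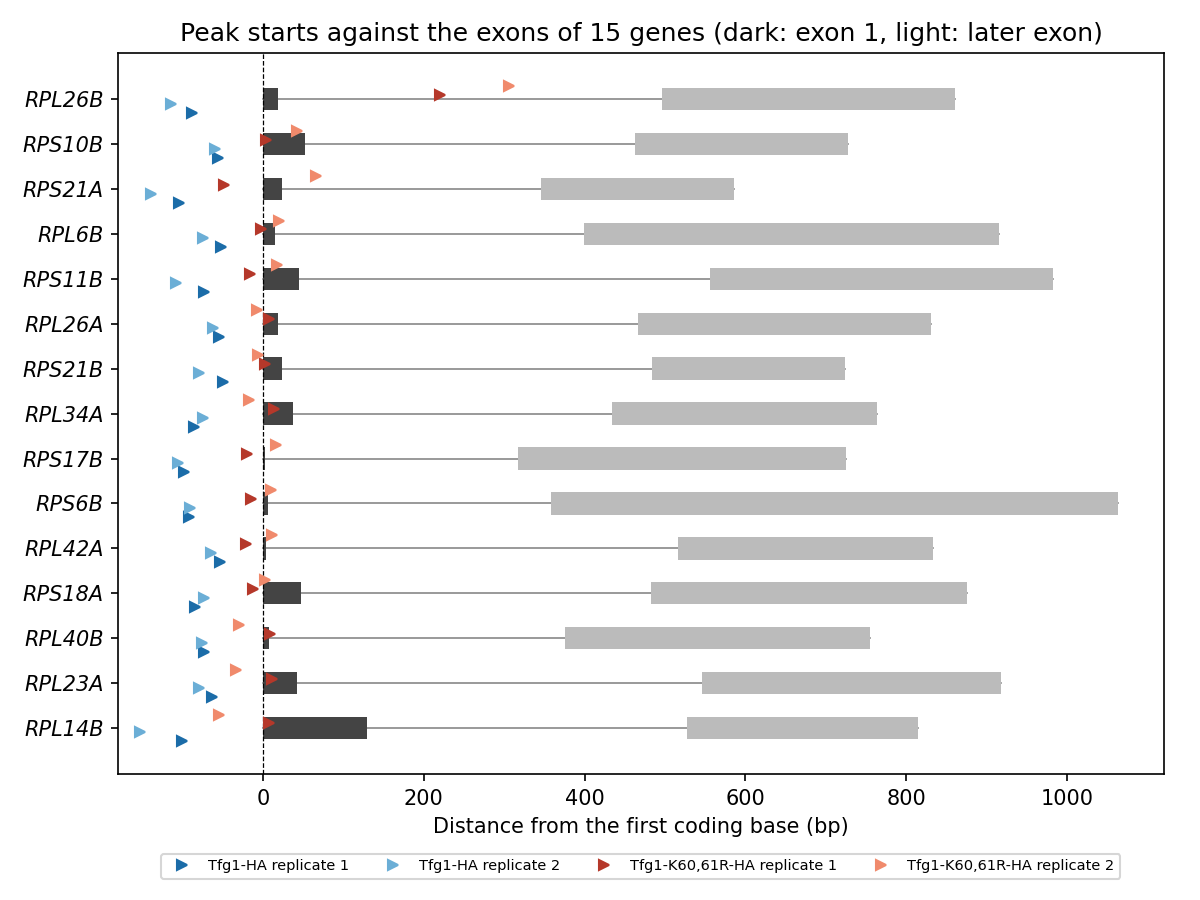
Peak starts (triangles, 1 per list) against the coding exons of the 15 genes whose start codon fell outside the peak in a mutant list; the x axis is the distance from the first coding base in bp, dark bars are exon 1, light bars the later exon and lines the intron. Both control peaks start before the first coding base at every gene, and RPL26B alone has both mutant peaks starting well inside its intron, with upstream edges of -220 and -306 bp.

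RPL26B (YGR034W, chromosome VII, 555812 to 556672, plus strand) departed most from the rest. It encodes Rpl26, a large-subunit protein near the exit of the polypeptide tunnel. Its exon 1 (19 bp, 555812 to 555830) was covered over 100% in both control lists and over 0% in both mutant lists. Its intron (477 bp, 555831 to 556307) was covered over 100% and 100%, then 57.9% and 39.8%. The upstream edge, the distance from the start codon back to the start of the peak and negative where the peak starts inside the gene, was 88 and 115 bp in the control lists and -220 and -306 bp in the mutant lists. At the other end the peak reached 878 and 1205 bp past the stop codon in the control lists, where it also covered YGR035C, and 363 and 329 bp in the others. The peak was thus shorter at both ends in the mutant lists, with a width of 1827 and 2181 bp against 1004 and 884 bp. Its fold was 2.23 and 2.43, then 1.99 and 1.86, and the groups of lists did not overlap in any of these measures.

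The paralog did not show this displacement. At RPL26A (YLR344W, chromosome XII, 819312 to 820142) the upstream edge was 55 and 62 bp in the control lists and -7 and 8 bp in the mutant lists. The coding sequences of the copies were 93.2% identical and their introns 51.9%. With the labels exchanged, exon 1 of RPL26B would stand at 50% in both groups, a difference of 0.

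RPS10B (YMR230W, chromosome XIII, 732414 to 733141, plus strand), which encodes a small-subunit protein, was the only other gene whose exon 1 coverage was lower in both mutant lists than in both control lists. Its exon 1 of 52 bp was covered over 100%, 100%, 92.3% and 19.2% in the 4 lists, and its upstream edge was 56, 60, -4 and -42 bp. Its intron stayed at 100% in every list. The difference in exon 1 coverage was -44.2 points, -7.69 points without mutant list 2 and -36.5 points with the labels exchanged. RPS10A had upstream edges of 102, 118, 59 and 31 bp, and its exon 1 was at 100% throughout.

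Exon 1 was at 0 in 1 mutant list only in 6 further genes, all with a first exon of at most 24 bp. In mutant list 1 this was RPL40B, whose product is a ubiquitin fused to a large-subunit protein. In mutant list 2 these were RPL6B, RPL42A, RPS6B, RPS17B and RPS21A. Rps6 is the small-subunit protein whose phosphorylation follows TORC1 signalling, and Rps21 works with Rps0 in maturation of the small subunit. RPS21A had the largest displacement of these, with upstream edges of 104, 139, 48 and -66 bp, which left 87.0% of its intron covered in mutant list 2.

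Shorter upstream edges were found in most of the 89 genes in the mutant lists. The upstream edge had a median over the 89 genes of 129 and 126 bp in the control lists and 61 and 58 bp in the mutant lists. The group means were 127.5 ± 2.12 and 59.5 ± 2.12 bp (SD, n = 2), a difference of -68 bp that was larger than the spread within a group (exact permutation test, p = 0.333). The edge was shorter in both mutant lists than in both control lists in 76 of 89 genes (85.4%), and longer in none. Among all ORFs with a peak in all 4 lists, 53.7% showed the shorter edge. The change in the median edge was not larger in the 89 genes, however, as it was -102 bp over all these ORFs, -75.5 bp in RPGs without a coding intron and -78.75 bp in other intron-containing genes. The same count was 38 of 47 for RPGs without a coding intron and 24 of 42 for other intron-containing genes. With the 2 labels exchanged the difference was -3 bp, and the edge was shorter in 5 genes and longer in 2.

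**Figure D2:**
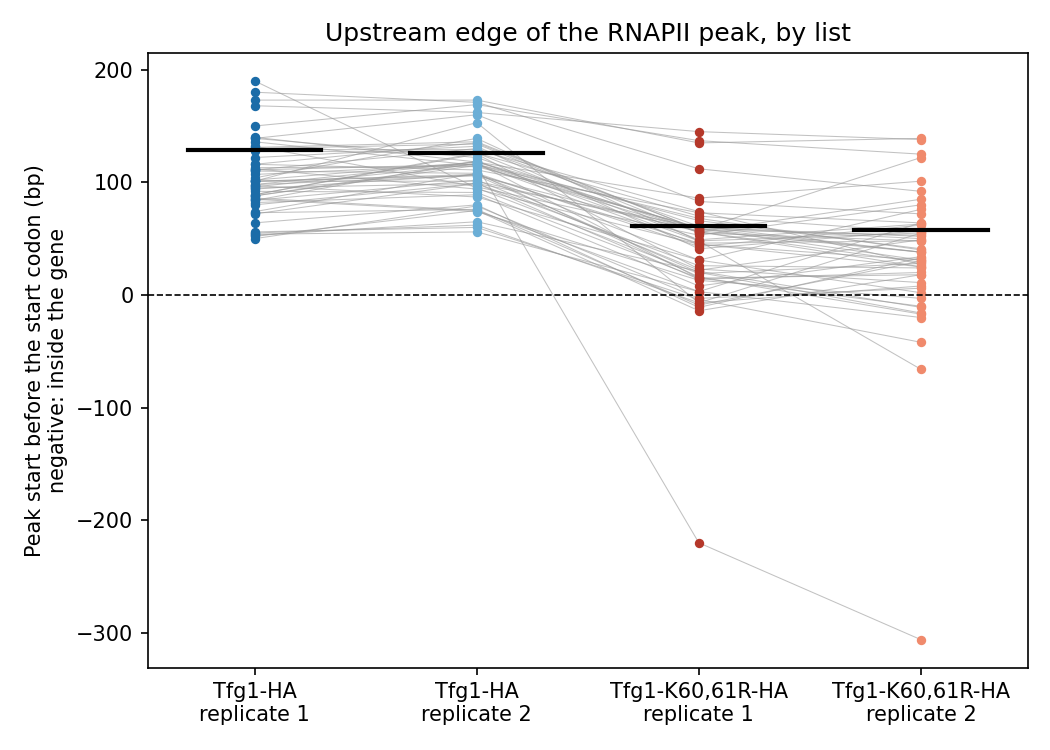
Distance from the start codon to the upstream edge of the peak (y axis, bp, negative inside the gene) in the 4 lists (x axis) for the 56 genes with no edge beyond 300 bp, 1 line per gene; black bars are medians over all 89 genes. The medians of 129 and 126 bp in the control lists stand above those of 61 and 58 bp in the mutant lists.

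The edges of the 40 genes that stood alone under their peak gave medians of 101, 115, 48.5 and 43 bp, and 37 of the 40 had a shorter edge in both mutant lists (1 shorter and 1 longer with the labels exchanged). The peak held at least 1 other ORF in some list in 10 of the 13 genes whose groups overlapped and in 49 of all 89. Large- and small-subunit genes were alike, with medians of 129, 129, 62.5 and 56.5 bp over 52 genes and of 120.5, 120.5, 60 and 63 bp over 36. Across the 89 genes of a list, Spearman's rho of the edge with intron length ranged from 0.03 to 0.10, and with fold percentile from 0.07 to 0.32, as a description over genes of 1 library.

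The peak moved less at its downstream end. The downstream edge, measured past the stop codon, had medians of 394, 410, 386 and 354 bp, or 402 ± 11.3 against 370 ± 22.6 bp (SD, n = 2), a difference of -32 bp (exact permutation test, p = 0.333). It was shorter in both mutant lists in 37 of 89 genes, or 41.6%, close to the 34.7% of all ORFs, and longer in both in 1, RPS18B. The difference was -16 bp without mutant list 2 and -8 bp with the labels exchanged. Stop codons lay under the peak in all 89 genes and all 4 lists.

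Peaks over the RPGs with an intron began closer to the start codon than those over RPGs without one. The medians of the latter were 246, 197, 158 and 134 bp, so that the intron-containing genes were shorter by 117, 71, 97 and 76 bp within the 4 lists. The mean difference was -90.2 ± 21.1 bp (SD, n = 4), negative in 4 of 4 lists, and the exact sign-flip test gave p = 0.125, the smallest it allows with 4 lists. Among genes that stood alone under their peak it was -57.1 bp. Against other intron-containing genes the difference was 16.9 ± 40.6 bp and changed sign between lists (exact sign-flip test, p = 0.625).

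The next comparison concerned the height of the peaks, taken from the fold of IP over input background given for each peak. The median fold of the 89 genes was 2.68 and 2.86 in the control lists and 2.06 and 1.89 in the mutant lists, 2.77 ± 0.13 against 1.98 ± 0.12 (SD, n = 2), a difference of -0.79 (exact permutation test, p = 0.333). The fold was lower in both mutant lists in 88 of 89 genes (98.9%) and higher in none, compared with 60.1% of all ORFs with a peak in all 4 lists. RPL33B was the exception. The fold was also lower in 40 of 47 RPGs without a coding intron (85.1%), whose median fold differed by -0.90. With the labels exchanged the group means were 2.37 and 2.38, and the fold was lower in 0 genes and higher in 0 without overlap. In bulk chromatin, fewer cells with RNAPII on a gene and less RNAPII per cell cannot be told apart. The ratio of the group means per gene ranged from 0.54 in RPS30A to 0.96 in RPS6A, with a median of 0.72. At both extremes the extent of the peak differed between lists. The peak held other ORFs only in control list 2 at RPS30A and only in the control lists at RPS6A. The number of the 89 genes with a fold of at least 2 was 82, 85, 48 and 32, without a count over all ORFs to set beside it. The median fold over all ORFs with a peak in all 4 lists also passed below 2 in the mutant lists. It was 2.14, 2.04, 1.86 and 1.70, a difference of -0.31.

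To set lists side by side, the fold of each gene was expressed as a percentile among all ORFs touched by a peak in its list. The median percentile was 77.1 and 79.5 in the control lists and 69.2 and 64.6 in the mutant lists, 78.3 ± 1.75 against 66.9 ± 3.24 (SD, n = 2). The mutant minus control difference was -11.4 points (exact permutation test, p = 0.333). It was lower in both mutant lists in 79 genes (88.8%) and higher in both in none, while 43.9% of all ORFs were lower. Of RPGs without a coding intron, 35 of 47 (74.5%) were lower. The mutant lists touch fewer ORFs, which changes the reference. Among the 1202 ORFs with a peak in all 4 lists, the same in each, the medians were 65.3, 71.3, 58.8 and 60.8, with 63 genes lower and 2 higher in both mutant lists. With the labels exchanged, 0 genes were lower and 16 higher on that scale. The background of lower ORFs on that scale was 26.8%, and 27 of 47 RPGs without a coding intron (57.4%) were lower. With the labels exchanged the difference in percentile was -1.06 points, with 3 genes lower and 1 higher.

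**Figure D3:**
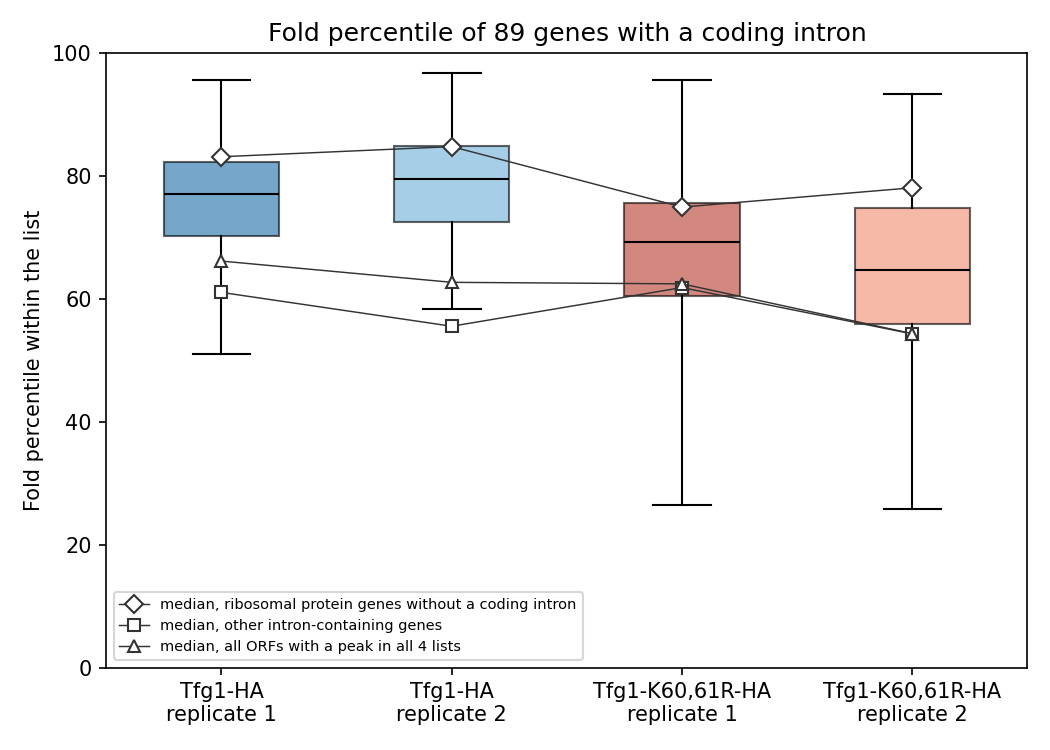
Fold percentile within the list (y axis, 0 to 100) of the 89 genes in the 4 lists (x axis); boxes show quartiles and median, whiskers the full range, and open symbols the medians of 3 other gene sets over the genes with a peak in all 4 lists. The medians of the 89 genes are 77.1, 79.5, 69.2 and 64.6, each below that of RPGs without a coding intron.

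Within each list the intron-containing genes ranked below RPGs without an intron. The medians of the latter were 83.1, 84.8, 74.9 and 78.1, and the difference was -6.07, -5.25, -5.71 and -13.4 points, or -7.62 ± 3.90 (SD, n = 4), negative in 4 of 4 lists (exact sign-flip test, p = 0.125). The intron-containing genes ranked above other genes with introns in each list, by 16.0, 24.0, 7.38 and 10.3 points (exact sign-flip test, p = 0.125). The percentile of those other genes was 61.0, 55.5, 61.8 and 54.3, and 15 of 42 were lower and 7 higher in both mutant lists. Intron length had a rho of 0.12 to 0.16 with the percentile across the 89 genes.

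The 6 genes of highest mean percentile were RPL33B, RPL28, RPL30, RPL34B, RPL36A and RPS14B. RPL28, known as the gene altered in cycloheximide-resistant cyh2 strains, was the only one of the 6 with no other ORF under its peak. Its fold was 6.30 and 7.13 in the control lists and 4.83 and 4.25 in the mutant lists, its percentile 95.6, 96.8, 93.4 and 92.9, and its peak began 173, 173, 135 and 139 bp before the start codon. It had the highest mean percentile of the 40 genes alone under their peak, and the groups of lists did not overlap. RPL30 encodes a protein that binds its own pre-mRNA and blocks its splicing. It had a fold of 5.41, 5.52, 3.73 and 3.64 in a peak that also held RPL24A, CGR1 and SCW11.

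RPL33B shared its peak with IRC13 and had a fold of 5.98, 6.70, 6.48 and 4.40, so that mutant list 1 stood above control list 1. RPS14B, whose pre-mRNA is bound by its own protein product, shared its peak with RPL39 and RPS22A, with a fold of 4.31, 4.62, 3.24 and 2.94. Both mutant lists were below both control lists there. RPL34B had a fold of 5.04, 5.20, 4.25 and 3.16, and RPL36A of 4.14, 4.95, 3.75 and 3.58.

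The 6 genes of lowest mean percentile were RPS0A, RPL23A, RPL20A, RPS10B, RPL2A and RPS11B. Of these, RPL23A, RPS0A, RPL2A and RPS10B also had the largest fall in percentile between the groups, and no gene rose in both mutant lists. Their ratios of group mean folds were 0.73, 0.77, 0.69 and 0.73, near the median of 0.72 over the 89 genes. Their fold thus fell by an ordinary amount. The mean percentile includes the mutant lists, so a large fall itself favours a low mean. RPL23A (YBL087C, chromosome II, 59822 to 60739), which encodes a protein at the interface of the subunits, stood at 57.2 and 60.7, then 30.5 and 25.8, a difference of -30.8 points. RPS0A (YGR214W, chromosome VII, 920575 to 921788), which encodes a small-subunit assembly and structural protein, stood at 51.1 and 58.4, then 26.5 and 28.5. Its difference was -27.2 points as labelled and turned to 4.64 points with the labels exchanged, while that of RPL23A became -0.54 points. The peak of RPS0A also held RSM27 in all 4 lists.

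RPL2A (YFR031C-A, chromosome VI, 220507 to 221418), with the shortest intron of the 89, encodes a protein close to the peptidyl transferase centre and stood at 65.0 and 67.3, then 49.5 and 31.2. RPS10B stood at 63.8 and 63.9, then 50.4 and 33.0. Their differences were -25.8 and -22.2 points, which became -16.6 and -13.5 points without mutant list 2 and -7.94 and -8.65 points with the labels exchanged. For each of these 4 genes the groups did not overlap, and the exact permutation test gave p = 0.333. RPL20A lay in a peak that also held YHM2, YMR242W-A and ZRC1 and had a fold of 1.79, 1.91, 1.49 and 1.58. RPS11B, with a fold of 2.07, 2.22, 1.57 and 1.49, stood alone.

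Since reads from near-identical copies can be misplaced, the spans were searched for repeated sequence. In 82 of the 89 genes at most 10% of the 100-nt windows occurred elsewhere in the genome, and in 69 none did. The highest share was 33.9%, in RPS6B. RPL2A, named above for its percentile, was also over 10%, at 12.7%, and its copy RPL2B stood at 9.66%. Over the 41 pairs in which both copies have an intron, the coding sequences were 93.5% identical at the median and the introns 51.6%, while the 250 bases before the start codon were 52.0% identical.

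Most pairs kept their order. In 36 of the 41 pairs the copy with the higher fold percentile was the same in all 4 lists, the A copy in 19 pairs and the B copy in 17. The absolute difference, averaged over lists, had a median of 11.2 points, and 22 of these pairs differed by more than 10 points. Among 15 pairs of RPGs in which neither copy has a coding intron, 10 kept 1 sign, with a median of 10.6 points. Pairs are not replicates, and this is a description. Some pairs were read from the same peaks, such as RPL13 with RPS16 and RPL21 with RPS9, with opposite signs. Such pairs are not separate measurements. Of the 12 pairs in which both copies stood alone under their peaks, all 12 kept 1 sign. The 5 pairs that changed sign were RPL14, RPL19, RPS6, RPS21 and RPS30. In all of them but RPL14, the other ORFs under the peak of 1 copy changed between lists. Such changes also occurred in pairs that kept 1 sign, such as RPL22 and RPL33.

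**Figure D4:**
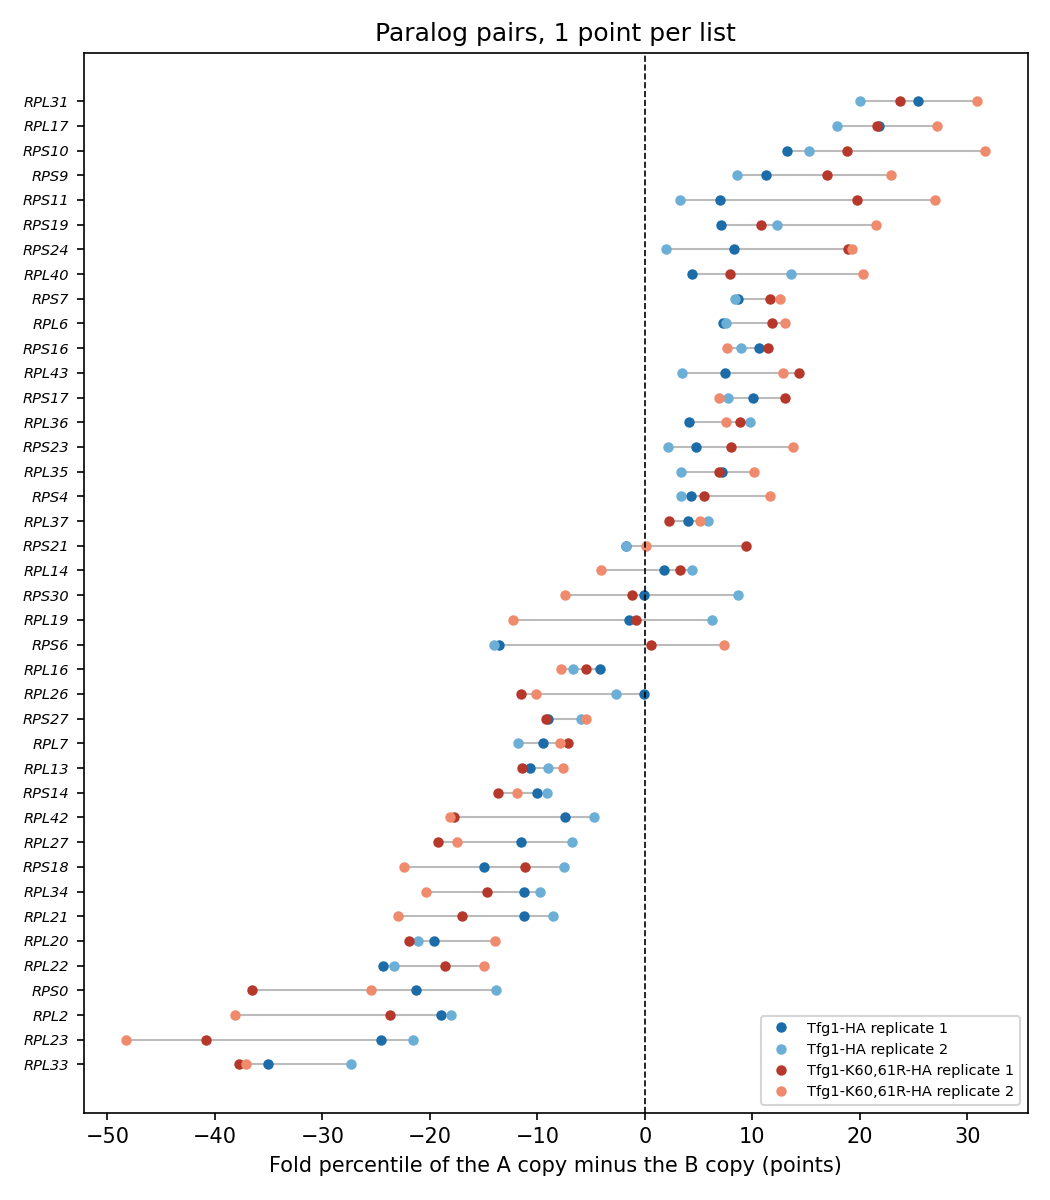
Fold percentile of the A copy minus that of the B copy (x axis, points) for 40 of the 41 pairs (y axis), with 1 point per list and a line from lowest to highest. The 4 points lie on 1 side of 0 in 35 of the pairs drawn, from RPL33, where the B copy was higher, to RPL31, where the A copy was.

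The pairs with the largest differences were RPL33, RPL23, RPL31, RPL2, RPS0 and RPL17. The difference of A minus B in percentile was -35.0, -27.4, -37.8 and -37.1 points for RPL33, where the peak of RPL33B held another ORF in 4 lists and that of RPL33A in 3. It was -24.5, -21.5, -40.9 and -48.2 points for RPL23, with each copy alone in its peak. The fold of RPL23B (YER117W) was 2.92, 3.00, 2.13 and 2.15, compared with 1.83, 1.95, 1.36 and 1.39 for RPL23A. Both copies thus had lower folds in the mutant lists. The upstream edge was 64, 80, -11 and 33 bp at RPL23A and 89, 126, 49 and 63 bp at RPL23B.

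RPL31A exceeded RPL31B by 25.4, 20.0, 23.7 and 30.9 points. Rpl31 lies at the rim of the exit tunnel. Fold was 3.43, 3.94, 2.82 and 2.46 at RPL31A (YDL075W) and 1.96, 2.27, 1.76 and 1.63 at RPL31B (YLR406C). RPL17A exceeded RPL17B, both with the longest first exon, by 21.8, 17.9, 21.6 and 27.2 points, and each of these 4 copies stood alone in its peak. For RPL2 the difference of A minus B was -19.0, -18.0, -23.8 and -38.2 points, and the introns of the copies measure 147 and 400 bp. For RPS0 it was -21.3, -13.9, -36.5 and -25.4 points. The fold of A over that of B was 0.670, 0.665, 0.702 and 0.716 for RPL2 and 0.703, 0.770, 0.711 and 0.832 for RPS0. For RPL23 it was 0.627, 0.649, 0.637 and 0.649. Each of these pairs had its widest percentile gap in a mutant list and its lowest ratio in a control list. At RPL33 both lay in mutant list 1, with a ratio of 0.266.

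RPL7A, RPL7B and RPS22B have features inside their introns. RPL7A (YGL076C, chromosome VII) and RPL7B (YPL198W, chromosome XVI) are the only ones with 2 coding introns, and the second intron of each hosts a small nucleolar RNA, SNR39 in RPL7A (365163 to 365251) and SNR59 in RPL7B (173827 to 173904). RPS22B (YLR367W, chromosome XII) hosts SNR44 (856710 to 856920). All 3 genes were covered over 100% of exons and introns in every list. Their fold was 2.67, 2.56, 2.18 and 2.02 for RPL7A, 3.45, 3.52, 2.63 and 2.33 for RPL7B and 2.63, 3.11, 2.45 and 2.01 for RPS22B, lower in both mutant lists in each case.

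In RPS22 and RPP1 the partner copy has no coding intron. RPS22B stood at percentiles of 76.0, 83.1, 77.0 and 70.6, and RPS22A, which shared its peak with RPS14B and RPL39, at 90.8, 92.1, 88.0 and 86.5. RPP1B, which encodes a P1 protein of the stalk, stood at 70.2, 68.1, 62.3 and 60.01, and RPP1A, which lay in the peak of RPS16B and RPL13A, at 67.3, 71.1, 59.1 and 57.7. The copy without an intron was higher in 4 of 4 lists in the first pair and in 1 of 4 in the second.

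Genes that control or process these transcripts are read against the 10.8% of all ORFs that were occupied in all 4 lists. That share does not apply to genes touched or occupied in only some lists, for which no share over all ORFs was computed. In control list 1 alone, 2109 of the 6002 ORFs were touched and 1193 were occupied. Of 11 regulators of RPG transcription, 3 were touched by a peak in some list, and HMO1, which encodes a high-mobility-group protein found at many RPG promoters, was the only one occupied in any. It was covered over 94.3%, 91.5%, 75.4% and 56.8% of its length. Of 31 spliceosome genes, 9 were touched by a peak in some list, 3 were occupied in at least 1 list (MUD1, PRP18 and SUB2) and none in all 4. SUB2, a helicase gene acting in early spliceosome assembly and mRNA export, lay in the peak of RPS16B and RPL13A, with coverage of 100%, 100%, 88.1% and 41.2%.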

How the data were processed

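RNAPII ChIP-seq was analysed for 2 Tfg1-HA and 2 Tfg1-K60,61R-HA IP libraries. The authors trimmed the reads, aligned them with Bowtie2 2.3.5.1 to sacCer3 and called broad peaks with MACS2 2.2.7.1 for every IP library on its own against input, so an edge marks where the signal crossed the caller's threshold. The deposited fold of a peak is a ratio of IP to input background averaged over the region. Each deposited row also has a p-value and a q-value, given as −log10. No counts were available to these steps and no depth was inferred. In mutant list 1, 894 of 1992 rows repeated the rows of replicate 2 and were left out. Input libraries were not analysed here, and values of 1 pair are not reported here.

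Coverage, edges and folds were computed in Python 3.11.15 against the R64 annotation, with the edge and fold taken from the peaks on the ORF (fold weighted by overlap). Lists were compared by two-sided exact permutation tests (2 against 2, smallest p = 0.333) and within-list differences by exact sign-flip tests (smallest p = 0.125). Paralogs were aligned globally with Biopython 1.88. The code was tested on simulated peaks. Sequences are from RefSeq R64. The label doubt was not settled by these files.

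Named genes were those with the 6 highest and 6 lowest mean fold percentiles, the 6 widest paralog differences of 1 sign, the largest non-overlapping group differences in exon 1, intron (up to 8 each) and percentile (4 each way), more than 1 intron or a snoRNA, extreme lengths, or a partner without an intron. Genes with an uncovered start codon, RPS18B, paralogs of named genes, the pairs that changed sign and the occupied regulators and spliceosome genes were added after their values were seen. The percentile among ORFs with a peak in all 4 lists was also added after seeing the data. The members and lists were chosen with earlier results of these data known.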

Additional observations from a re-analysis of the deposited data

How the results depend on the processing

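Alternatives used stricter peaks (fold or −log10 q of 2 or more), equally many peaks from each list, the repeated rows, joined peaks, subsets of genes, exchanged labels and each list left out. When only peaks with a fold of 2 or more counted, the difference in occupied genes went from 0 to -43.5, that in exon 2 coverage from 0 to -48.9 points and the pairs of 1 sign from 36 of 41 to 3 of 3 that could still be compared. With occupied defined as 80% of the span, the difference was -1 gene. Pairs of 1 sign numbered 16 of 17 with peaks of at most 3 kb, 23 of 25 with first exons of at least 10 bp and, chosen after seeing the data, 12 of 12 with no other ORF under the peak. The last 3 counts fell because fewer pairs were compared. The filter on fold also moved the upstream edge difference to -43 bp and the percentile difference to -30.8 points. Both values rest on the 31 genes that kept a peak in all 4 lists. The percentile there ranks only ORFs touched by the remaining peaks, so it is another scale. With the labels exchanged, RPS0A turned to 4.64 points, RPL26B exon 1 to 0 and the median fold difference from -0.79 to 0.0094. On the scale of ORFs with a peak in all 4 lists, 63 lower and 2 higher genes became 0 and 16. No other difference computed under the alternatives changed direction. Without each list in turn, the upstream edge difference ranged from -69.5 to -66.5 bp and the percentile difference from -13.7 to -9.07 points.

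With replicate number as a block, a paired sign-flip over 2 pairs gave the same -68 bp for the upstream edge (exact p = 0.5, the smallest it allows) and changed no direction. Deviations of same-numbered lists from their group means correlated at 0.61 in fold, 0.25 in percentile and 0.13 in upstream edge over 1202 ORFs, and at -0.20, 0.029 and -0.087 over the 89 genes. The labels name no shared batch or day and there are only 2 pairs, so the numbers were not taken to pair the lists. Exchanging labels or blocking does not apply to counts of pairs, and exchanging them leaves within-list differences as they are. Every exact permutation p between groups was limited to 0.333 or more by 4 lists. The peak lists give no depth, and a fall in signal above the calling threshold leaves coverage at 100%.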
